A study of Mus musculus with 2 samples.

Results

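The genes described here are 37 genes of the actin cytoskeleton and of lymphocyte movement, chosen by name from the 27179 genes of the series. They cover both non-muscle actins, the proteins that bind actin monomers, the Arp2/3 complex with the coronins, its activators, small GTPases and their regulators, filament bundling and severing proteins, the proteins that tie actin to the membrane, and non-muscle myosin. The cells were progenitors of group 2 innate lymphoid cells (ILC2), sorted by flow cytometry from the bone marrow of wild-type C57BL/6 mice aged 8 weeks. The series holds 1 group of 2 libraries, each made from 100 ng of total RNA of a pool of 8 mice, and it has no second genotype, treatment or stage. The sources used here do not give the antibodies of the sort, and a pool of mice gives no value for a single animal.

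Actin is a globular protein that polymerises into filaments, and a migrating lymphocyte pushes its front forward by building a branched filament network there. Small GTPases such as Rac and Cdc42, switched on by guanine nucleotide exchange factors, activate WASP and WAVE proteins, which in turn activate the Arp2/3 complex to start a new branch from the side of a filament. Cofilin and the coronins take old filaments apart, profilin and the thymosins hold and deliver monomers, and myosin II contracts the rear of the cell. Many of these proteins come as a haematopoietic form and a widely expressed form.

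Levels are the deposited RPKM (reads scaled to gene length and library size), in which length is divided out. A comparison between genes is less certain where a gene shares sequence with other genes, and such sharing is given below. Pool 1 and pool 2 are names given by accession order alone. In both files the heading over the values bears the code of the opposite library (0 of 2 matched). If the headings are right, the names pool 1 and pool 2 exchange in every difference below. Genes reaching 1 RPKM in each of the pools count as detected, and there were 11013 of them. The steps between RPKM values gave totals of 20216146 reads for pool 1 and 19834586 for pool 2. The labels do not say whether the pools came from separate experiments, and the spread between the pools (SD, n = 2) includes technical differences. All 10 ILC2 markers examined were detected, from Ly6a, which encodes the surface antigen Sca-1, at 1160 RPKM to the nuclear receptor gene Rora at 53.7 RPKM on average.

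The coding sequences of the thymosins are printed here because Tmsb4x was the lowest member by far and Tmsb10 was not. Thymosin beta 4 and thymosin beta 10 are small proteins that hold actin monomers. Their coding sequences, from the GENCODE M21 annotation of GRCm38, are 135 bases each including the stop codon, of which 95 (70.4%) are identical, and capitals mark the bases at which they differ.
Tmsb4x: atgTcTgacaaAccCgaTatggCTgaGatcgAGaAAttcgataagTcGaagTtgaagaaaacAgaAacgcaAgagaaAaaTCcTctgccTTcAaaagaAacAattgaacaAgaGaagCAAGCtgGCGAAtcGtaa
Tmsb10: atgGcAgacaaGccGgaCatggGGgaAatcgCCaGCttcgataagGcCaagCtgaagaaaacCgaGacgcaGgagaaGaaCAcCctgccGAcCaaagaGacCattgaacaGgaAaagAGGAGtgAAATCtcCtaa
The differences run along the whole length of both sequences.

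Actin regulators were among the most abundant messages of these cells. Of the 37 genes, 36 were detected and 25 of those (69.4%) had a mean of 100 RPKM or more, a level that 7.14% of all detected genes reached. Means of 1000 RPKM or more were found for 3 of the 36 (8.33%), Pfn1, Coro1a and Actb, and for 0.454% of all detected genes. The median level of the 37 genes was 7.24 in pool 1 and 7.29 in pool 2 on the log2(RPKM + 0.1) scale, with a mean of 7.26 ± 0.039 (SD, n = 2). Together the 37 genes, 0.136% of all genes by number, made up 2.27% of the summed RPKM of pool 1 and 2.41% of that of pool 2. The 5 most abundant (Pfn1, Coro1a, Actb, Cfl1 and Arhgdib) held 52.8% and 53.6% of the members' sum.

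**Figure D1:**
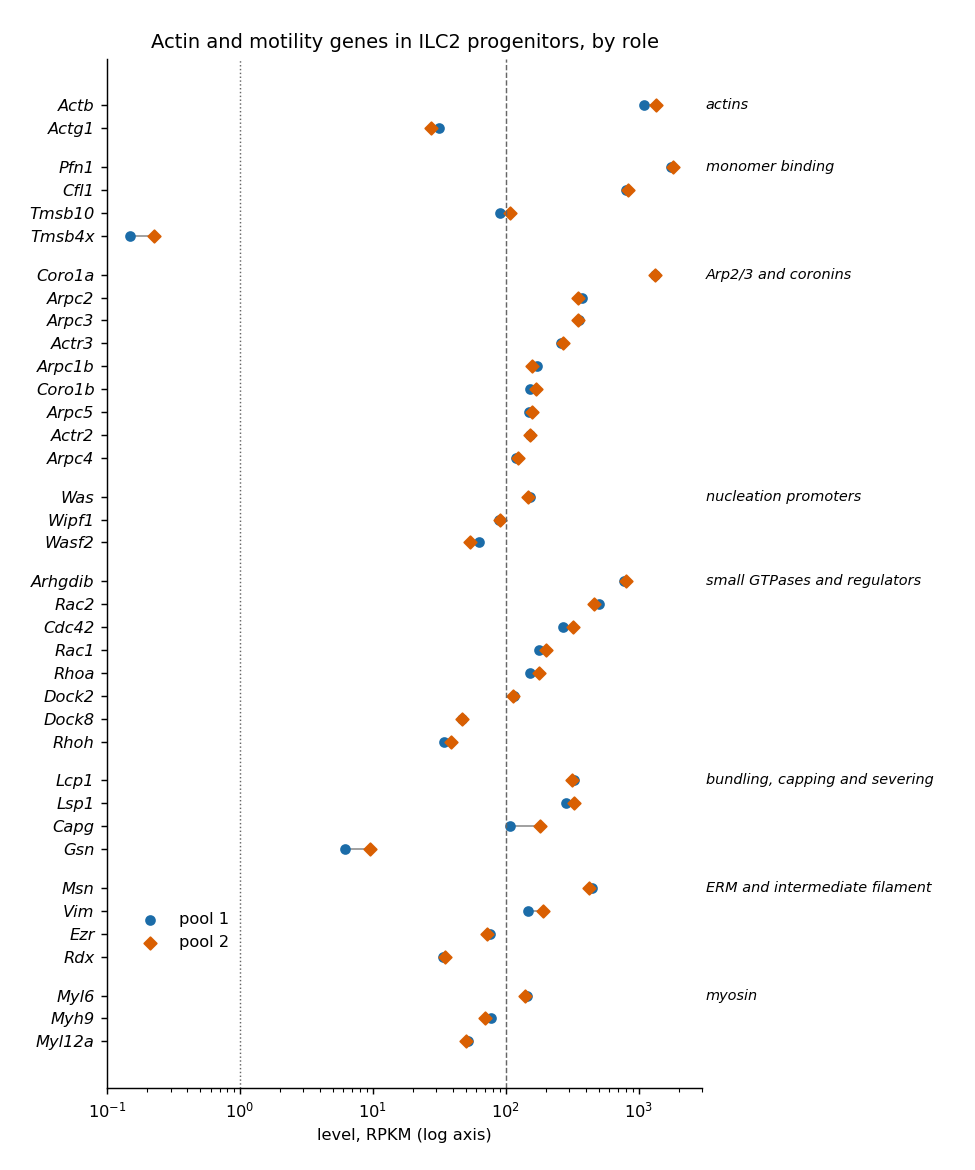
Level of each of the 37 genes in pool 1 (blue circle) and pool 2 (orange diamond), in RPKM on a log axis, grouped by role and ordered by mean within a role. The dotted line is the detection limit of 1 RPKM and the dashed line is 100 RPKM, and Tmsb4x alone lies left of the dotted line.

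The non-muscle actins were present at very unequal levels. Actb, which encodes beta-actin (Entrez ID 11461, chromosome 5, 142903115 to 142907976, GRCm38), was at 1094 RPKM in pool 1 and 1358 RPKM in pool 2, a mean of 1226 ± 186 (SD, n = 2). It ranked 40 among all genes by mean. Actg1, which encodes gamma-actin (Entrez ID 11465, chromosome 11, 120345687 to 120348495), was at 31.5 and 27.3 RPKM. Actb was thus the higher of the pair in both pools, with log2 ratios of 5.11 and 5.63 (mean 5.37 ± 0.37). The level of Actg1 carries an uncertainty that the level of Actb has to a lesser extent. Of the 50-base stretches of the Actg1 transcript, 55.9% also occur in annotated genes elsewhere in the genome, most of them in the processed pseudogene Gm12715, against 14.2% for Actb. The sources used here do not say how reads with several matches were handled, so the part of such sharing in the ratio was not tested. The actins of muscle were not detected, with Acta1 the highest of 4 at 0.483 and 0.739 RPKM and Actc1 the lowest at 0.249 and 0.181.

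The monomer-binding proteins held both the most and the least abundant of the 37 genes. Pfn1, which encodes profilin 1, the protein that loads actin monomers onto growing filament ends (chromosome 11, 70651844 to 70656799), was at 1763 and 1822 RPKM and ranked 24 among all genes. Cfl1, which encodes cofilin 1, a severing protein, followed at 805 and 835 RPKM. Both kept nearly the same level in the pools.

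Tmsb4x (Entrez ID 19241, chromosome X, 167207093 to 167213479) was the single gene of the 37 that was not detected. It was at 0.148 RPKM in pool 1 and 0.226 RPKM in pool 2, which correspond to 2 and 3 reads over a gene length of 670 bases. Tmsb10 (chromosome 6, 72957347 to 72958748), its relative printed above, was at 91.0 and 107 RPKM from 1735 and 2003 reads. Per length, Tmsb10 was 616-fold higher than Tmsb4x in pool 1 (95% exact binomial interval of counting error 170 to 5094) and 474-fold higher in pool 2 (162 to 2302). Tmsb4x is known as one of the most abundant transcripts of leukocytes.

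Sharing of sequence with annotated genes was measured for both thymosins. None of the 50-base stretches of the Tmsb4x transcript occurs in another annotated gene (0%), whereas 43.5% of those of Tmsb10 do. Some widely expressed genes, named here after their values were seen, were also low. Gapdh, a glycolytic enzyme gene, averaged 5.06 RPKM with 82.5% of its stretches found elsewhere, and Tuba1b, an alpha-tubulin gene, averaged 8.89 RPKM with 82.2%. Ubb, a ubiquitin gene, averaged 2.55 RPKM with 61.0%, and Ppia, which encodes cyclophilin A, 21.4 RPKM with 38.8%. In the other direction, Eef1a1, a translation elongation factor gene, averaged 2713 RPKM with 57.9% of its stretches found elsewhere, and B2m averaged 8447 RPKM with 0%. Tpt1, a translation-associated gene, averaged 1044 RPKM with 42.0%. The part of shared sequence in these levels was not tested, nor what made the Tmsb4x value so low.

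**Figure D2:**
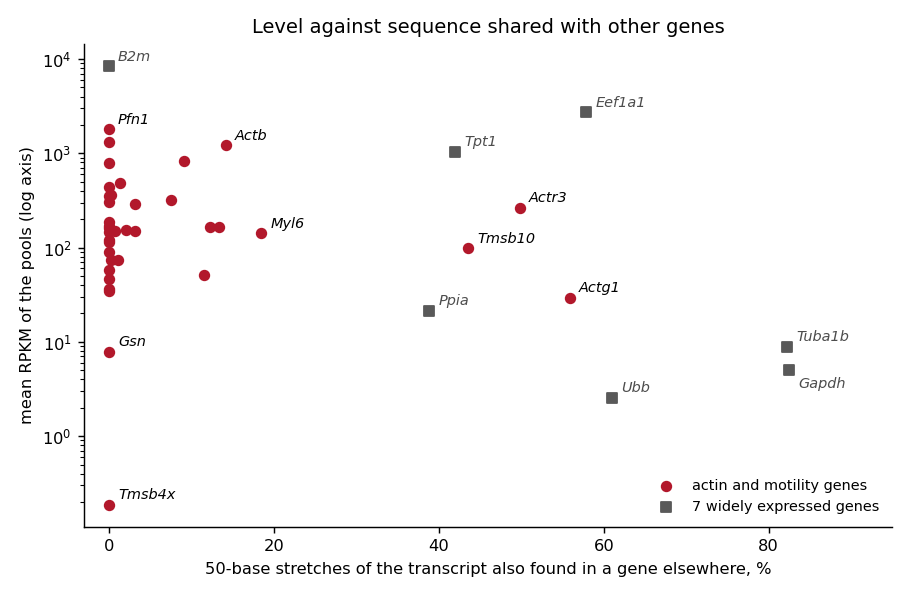
Mean RPKM of the pools (log axis) against the percentage of 50-base stretches of the transcript that also occur in an annotated gene elsewhere in the genome, for the 37 genes (red circles) and 7 widely expressed genes chosen after their values were seen (grey squares). Tmsb4x lies at the bottom with 0% shared, and Actg1, Actr3 and Tmsb10 are the members above 20%.

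Of the members, 7 encode subunits of the Arp2/3 complex, which nucleates branched filaments. All 7 were at 100 RPKM or more and lay within a 2.99-fold range. Arpc2 was the highest at 374 and 348 RPKM, and Arpc4 the lowest at 118 and 123 RPKM. Arpc3 stood near the top as well, with 355 and 350 RPKM. Its level differed between the pools by less than counting error, with a ratio of pool 2 to pool 1 of 0.987 (95% interval 0.952 to 1.02).

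The actin-related proteins that form the core of the complex were Actr3 at 260 and 270 RPKM and Actr2 at 151 and 152 RPKM. Arpc1b, the ARPC1 form typical of blood cells, was at 173 and 157 RPKM. Arpc5 was at 150 and 157 RPKM. Genes of alternative subunits, which are not members, were lower. Arpc1a was at 47.2 and 38.7 RPKM, Arpc5l at 55.4 and 65.7 RPKM and Actr3b at 0.347 and 0.177 RPKM. The subunits assemble in equal number in the protein complex, but their transcripts did not share a level per length. The log2 ratio of Arpc2 to Arpc1b was 1.11 and 1.15 in the pools. That ratio was 0.17 on average in reads not divided by length, with gene lengths of 1597 bases for Arpc2 and 3102 bases for Arpc1b. For Actr3, 49.8% of the 50-base stretches occur in genes elsewhere, and for Arpc1b 28.9% are shared with annotated genes at its own locus and 13.4% with genes elsewhere.

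Coro1a (Entrez ID 12721, chromosome 7, 126699774 to 126704816) encodes coronin 1A, an Arp2/3-binding protein of haematopoietic cells that naive T cells need for survival and migration. It was at 1333 RPKM in pool 1 and 1332 RPKM in pool 2, the closest agreement among the most abundant members, and shares no stretch with another annotated gene. Coro1b, the widely expressed coronin 1B, was at 153 and 168 RPKM, and 20.8% of its stretches are shared with the annotated gene Ptprcap at the same locus. Coro1a exceeded it by 3.12 and 2.99 on the log2 scale (mean 3.05 ± 0.092), a gap far wider than the spread between the pools.

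The activators of Arp2/3 were present at more moderate levels. Was, which encodes the Wiskott-Aldrich syndrome protein WASP of blood cells (chromosome X, 8081466 to 8090491), was at 153 and 146 RPKM. Wipf1, whose product binds WASP and protects it from degradation, was at 89.6 and 90.4 RPKM. Wasf2, which encodes the WAVE2 subunit of the WAVE complex, was at 62.6 and 53.7 RPKM. Per length, Wasf2 was below Was by 1.29 on the log2 scale in pool 1 and by 1.44 in pool 2. The order of the pair depended on length: the Wasf2 gene length is 6132 bases and that of Was 2094 bases, and in reads not divided by length Wasf2 was the higher, by 0.18 on the log2 scale on average.

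Among the small GTPases, the haematopoietic Rac2 was the most abundant. Rac2 (chromosome 15, 78559169 to 78572783) was at 502 and 463 RPKM and Rac1, its widely expressed relative, at 178 and 200 RPKM. The log2 ratio of Rac2 to Rac1 was 1.496 in pool 1 and 1.21 in pool 2 (mean 1.35 ± 0.20), so Rac2 was the higher in both. Of the Rac1 transcript, 55.0% of the 50-base stretches are shared with the annotated gene Daglb at the same locus.

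Cdc42, a GTPase that acts through WASP, was at 268 and 318 RPKM, and Rhoa, which drives contraction through myosin, at 153 and 178 RPKM. Rhoh, an atypical GTPase of haematopoietic cells that does not hydrolyse GTP, was the lowest of these at 34.6 and 38.4 RPKM. Cdc42, Rhoa, Rac1 and Rhoh were each higher in pool 2 and Rac2 was lower there, and none of these differences reached 1.5-fold.

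Dock2, the exchange factor that activates Rac in lymphocytes responding to chemokines, was at 116 and 114 RPKM. Dock8, an exchange factor for Cdc42 in migrating lymphocytes, was at 46.5 and 46.6 RPKM. Both differed between the pools by less than counting error, with ratios of 0.982 (95% interval 0.960 to 1.005) and 1.002 (0.970 to 1.03). The log2 ratio of Dock2 to Dock8 was 1.32 and 1.29.

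Arhgdib encodes the haematopoietic GDP dissociation inhibitor that holds small GTPases in the cytosol. It was at 779 and 805 RPKM (chromosome 6, 136923655 to 136941899), the highest of the regulators and above every GTPase of the group.

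**Figure D3:**
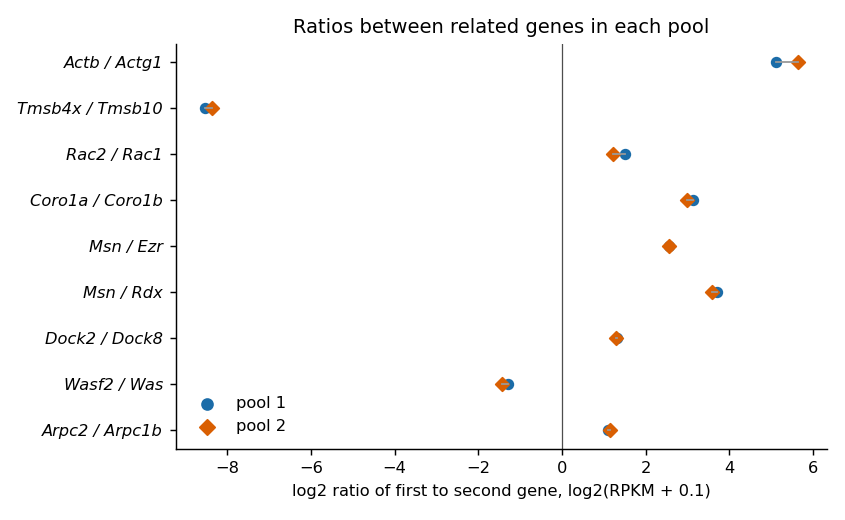
Log2 ratio of the first to the second gene of 9 pairs in pool 1 (blue circle) and pool 2 (orange diamond), on the log2(RPKM + 0.1) scale. In 9 of 9 pairs both pools lie on the same side of 0, and the Tmsb4x to Tmsb10 pair at the far left rests on 2 and 3 reads of Tmsb4x.

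The bundling, capping and severing proteins held the members that were farthest apart between the pools. Capg (Entrez ID 12332, chromosome 6, 72538282 to 72562983), which encodes a gelsolin-family protein that caps filament ends and is abundant in macrophages, was at 108 RPKM in pool 1 and 182 RPKM in pool 2. Its difference was 0.75 on the log2 scale, and from 2726 and 4508 reads the ratio was 1.69 (95% interval 1.61 to 1.77). Gsn (chromosome 2, 35256359 to 35307902), which encodes gelsolin, a calcium-activated severing protein, was at 6.20 and 9.46 RPKM. Its 368 and 551 reads gave a ratio of 1.53 (1.34 to 1.75). Gsn was also the lowest of the detected members.

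Lcp1, which encodes the leukocyte filament bundler L-plastin, was at 327 and 317 RPKM. Lsp1, an F-actin-binding protein of leukocytes, was at 282 and 324 RPKM. Lcp1 was slightly lower in pool 2 and Lsp1 slightly higher, neither near 1.5-fold.

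Of the proteins that link actin to the plasma membrane, moesin was the main form. Msn (chromosome X, 96096045 to 96168553) was at 445 and 423 RPKM, Ezr (ezrin) at 75.9 and 72.2 RPKM and Rdx (radixin) at 33.9 and 35.0 RPKM. Msn exceeded Ezr by 2.55 in both pools on the log2 scale, and exceeded Rdx by 3.71 and 3.59. This order, moesin over ezrin over radixin, held in both pools.

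Vim encodes vimentin, the intermediate filament protein of leukocytes and mesenchymal cells (chromosome 2, 13574311 to 13582826). It was at 147 RPKM in pool 1 and 192 RPKM in pool 2, a ratio of 1.30 (95% interval 1.255 to 1.35).

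Non-muscle myosin II was represented by its heavy chain gene Myh9 at 77.9 and 69.8 RPKM, the essential light chain gene Myl6 at 145 and 141 RPKM, and the regulatory light chain gene Myl12a at 52.1 and 49.9 RPKM. All 3 were slightly lower in pool 2, Myh9 the most with a ratio of 0.896 (95% interval 0.873 to 0.921). Myl6 and Myl12a differed by less than counting error, with ratios of 0.971 (0.908 to 1.04) and 0.958 (0.897 to 1.02). For Myl12a, 29.2% of the stretches are shared with its neighbour Myl12b at the same locus, a gene with a related product.

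With 1 library a side, a difference between the pools could not be tested, and genes were counted by fold alone, on the log2(RPKM + 0.1) scale. Past 1.5-fold were 2 of the 36 detected members (5.56%), Capg and Gsn, against 8.45% of all detected genes. Both were higher in pool 2, where 5.86% of all detected genes passed that fold, and 0 members were higher in pool 1, where 2.6% did. Past 2-fold were 0 members, against 2.56% of all detected genes. Among genes with a mean of 100 RPKM or more, 1 of 25 members (4%), Capg, was past 1.5-fold against 6.62% of all such genes. Gsn lay at the limit, with a fold of 1.52, and the count of members was 1 with a pseudocount of 1 or with the libraries scaled to a median ratio of 1.

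The members as a list differed little between the pools. The median log2 difference, pool 2 minus pool 1, was 0.029 over the 36 detected members and 0.044 over all detected genes. The median absolute log2 difference was 0.072 for the members and 0.170 for all detected genes. Genes at 100 RPKM or more are nearer to the members in level, and there the median absolute difference was 0.069 for 25 members and 0.116 for all 786 genes. The values of the detected members rest on 368 to 50870 reads a gene and pool, so counting error is small for most of them. The intervals given for single genes cover counting error only and say nothing about the spread between pools of mice.

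**Figure D4:**
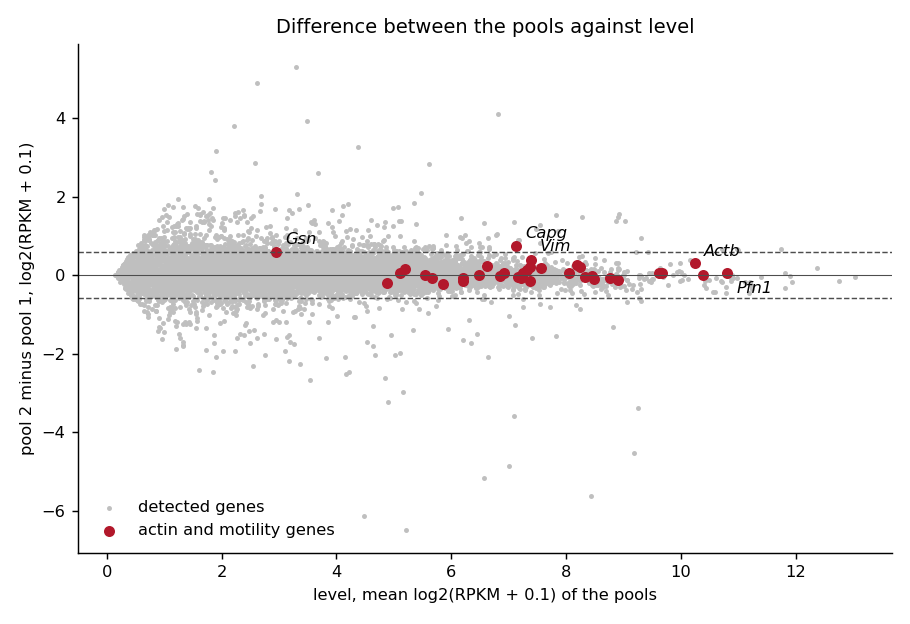
Difference between the pools, pool 2 minus pool 1 on the log2(RPKM + 0.1) scale, against the mean level on the same scale, for 11013 detected genes (grey) and the 36 detected members (red). Dashed lines mark 1.5-fold, and Capg and Gsn are the members at or above the upper line.

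Many markers of other cells of the marrow, and 6 of the 10 ILC2 markers, moved between the pools in the same direction as Capg, Gsn and Vim. In bulk RNA, fewer cells of a type and less RNA per cell cannot be told apart. Of 11 neutrophil and monocyte markers, 10 were detected and 8 of those were past 1.5-fold higher in pool 2, with a summed level of 1119 RPKM in pool 1 and 2616 in pool 2. The highest was S100a9, a calprotectin subunit gene of neutrophils, at 324 and 842 RPKM, and the lowest was Cd14 at 0.529 and 0.370. Cd14 was the 1 marker of this list that was higher in pool 1. The detected markers not past 1.5-fold, named after their values were seen, were Mpo and Csf1r. Mpo was at 71.7 and 93.0 RPKM. Csf1r, a monocyte marker, was nearly level at 2.04 and 2.17 RPKM, so the rise of the list did not extend to all its monocyte markers. Of 9 eosinophil markers, 7 were detected and 6 of those were past 1.5-fold higher in pool 2, from a sum of 60.3 to one of 659 RPKM.

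The highest eosinophil marker was Prg2, the major basic protein gene, at 27.2 and 471 RPKM, and the lowest was Il5ra at 0.0556 and 0.198. All 7 detected of 8 erythroid markers were past 1.5-fold higher in pool 2, and the list summed to 923 and 2629 RPKM. Of the 7 platelet and megakaryocyte markers 0 were detected, with sums of 1.84 and 6.58 RPKM. No marker of these 4 lists of other cells was listed at 0 in both pools. The part of such cells in the levels and differences of Capg, Gsn and Vim was not tested.

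Other lists held genes higher in pool 2 as well. Of the 10 ILC2 markers, 6 were higher in pool 2 and 4 in pool 1, and the list summed to 3031 and 3483 RPKM. The 1 ILC2 marker past 1.5-fold, named after its values were seen, was Il1rl1 at 173 and 262 RPKM, higher in pool 2. Of 8 T cell markers, 7 were detected and 6 of those were higher in pool 2, 3 of them past 1.5-fold, and the list summed to 864 and 1051 RPKM. The genes past 1.5-fold, named after their values were seen, encode chains of the T cell receptor complex: Cd3g was at 104 and 195 RPKM, Cd3e at 45.8 and 78.3 RPKM and Cd3d at 63.4 and 97.4 RPKM. The highest of the list, the T cell receptor constant gene Trbc2, was at 437 and 427 RPKM, and Cd8a was listed at 0 in both pools. All 3 detected of 6 natural killer and ILC1 markers were higher in pool 2, 2 of them past 1.5-fold, with sums of 11.6 and 16.5 RPKM.

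The B cell list summed to 240 and 105 RPKM, with Igkc, an immunoglobulin light chain gene, at 205 and 48.4 RPKM in pool 1 and pool 2, while the other 6 of its 7 markers were higher in pool 2. Among those 6, Cd79b, a B cell receptor subunit gene named after its values were seen, was at 33.5 and 47.8 RPKM. The mast cell and basophil list summed to 110 and 103 RPKM, and 3 of its 5 markers were higher in pool 1. The stromal and endothelial list summed to 68.4 and 2.94 RPKM, led by the collagen gene Col1a1 at 40.5 and 0.889. Of its 8 markers, 5 were higher in pool 1 and 3 in pool 2, and 0 were detected in both pools. The part of these cells in the differences of the members was not tested either.

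The remaining actin system was examined in 143 genes outside the 37, in the same roles. Of these, 111 were detected, 22 had a mean of 100 RPKM or more, and 2 were listed at 0. Their detected genes had a median of 28.1 RPKM, below the 157 RPKM of the 36 detected members and above the 14.6 RPKM of all detected genes. Past 1.5-fold were 3 genes higher in pool 2 and 4 higher in pool 1, together 6.31% of the 111 and near the 8.45% of all detected genes.

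Several of these genes reached the level of the members. Tagln2, which encodes the actin-binding transgelin 2, was at 368 and 416 RPKM, and Arhgdia, the widely expressed GDP dissociation inhibitor, at 363 and 318 RPKM. Myl12b, a regulatory myosin light chain gene, was at 300 and 305 RPKM, and Cap1, a protein that recycles actin monomers, at 265 and 261 RPKM. Hcls1, the haematopoietic cortactin relative that binds Arp2/3, was at 216 and 228 RPKM. Vasp, which encodes a filament elongation factor, was at 204 and 189 RPKM, and Slc9a3r1, a partner of ezrin and its relatives, at 142 and 168 RPKM.

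The lowest genes of each role were mostly forms known from other tissues. Wasf1 and Wasf3, which encode the WAVE1 and WAVE3 proteins, were listed at 0 in both pools, and Actr3b, a relative of Actr3, was at 0.347 and 0.177 RPKM. Myh11, the smooth muscle myosin heavy chain gene, was at 0.0149 and 0.0076 RPKM. Pfn4 was at 0.265 and 0.270 RPKM and Arhgdig at 0.0959 and 0.195 RPKM. Cnn1, a smooth muscle calponin gene, was at 0.0249 RPKM in pool 1 and listed at 0 in pool 2, as was Des, the muscle intermediate filament gene, with 0.023 RPKM in pool 1.

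**Figure D5:**
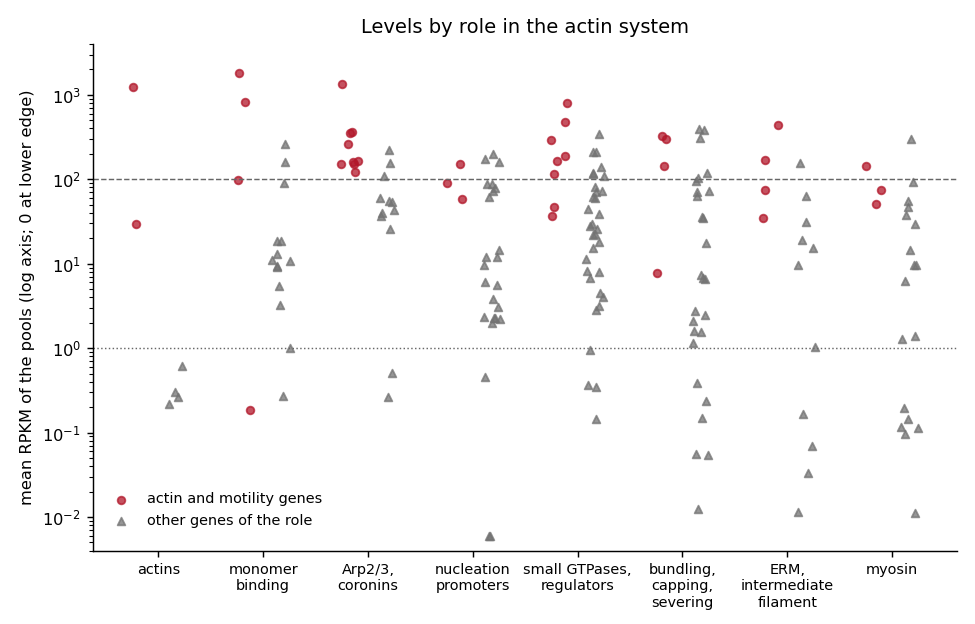
Mean RPKM of the pools (log axis, genes listed at 0 drawn at the lower edge) of the 37 genes (red circles) and of 143 other genes of the actin system (grey triangles), by role. The dashed line is 100 RPKM, reached by 25 members and 22 of the other genes, and the dotted line is 1 RPKM.

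Of the 143 genes, 1 with a mean of at least 10 RPKM was past 1.5-fold, Rhob. It encodes an endosomal small GTPase whose transcription is induced quickly by growth factors and stress. Its level was 46.4 RPKM in pool 1 and 13.3 RPKM in pool 2, a log2 difference of -1.80, and the counts were 2090 and 586 reads. Immediate early genes, which many stimuli including cell isolation switch on within minutes, moved the same way: 15 of 15 were higher in pool 1, and 13 of the 13 detected were past 1.5-fold. Their highest gene, Zfp36, was at 2786 and 120 RPKM, and the lowest, Egr2, at 1.27 and 0.799 RPKM. Their part in the Rhob value was not tested.

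Serum response factor (SRF) binds the CArG box in the promoters of both immediate early and actin genes, together with cofactors, of which only some sense free actin monomers. Srf itself was at 29.9 and 23.2 RPKM, and all 6 genes of the SRF and coactivator list were higher in pool 1, from Mkl1 at 33.6 and 29.4 RPKM to Mkl2 at 4.45 and 4.06 RPKM. The actin members were therefore searched for CArG boxes in RefSeq promoter windows of GRCm38.p6, from 250 bases before to 50 after each start, on both strands. Windows were found for 32 of the 37 members, with Actb, Coro1b, Rac1, Rac2 and Lsp1 unmatched. A CArG box was found for 3 of 32 (9.38%), against 1.46% of 8406 detected genes with a window and 1.81% of all 27025 genes with one. A gene counted if any of its windows matched, and the genes compared were not matched in number of windows.
The sites, read on the strand of the gene, were as follows.
Actg1, 90 bases before the start: CCATATATGG
Arpc4, 250 bases before the start: CCTAATTTGG
Myl6, 50 bases before the start: CCTTATATGG
The Myl6 site belongs to a start that RefSeq places inside the gene. The site of Actg1 is shown in the 120 bases before its start on the minus strand, chr11:120348496-120348615, with the CArG box in capitals.
Actg1 promoter: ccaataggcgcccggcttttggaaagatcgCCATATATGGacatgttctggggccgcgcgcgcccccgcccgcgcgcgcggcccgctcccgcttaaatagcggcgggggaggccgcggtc
A match is a stretch of letters and not a measured binding site.

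Of the 3 members with a CArG box, Actg1 was at 31.5 and 27.3 RPKM, Arpc4 at 118 and 123 RPKM and Myl6 at 145 and 141 RPKM. None of them was 1.5-fold apart between the pools. Of the immediate early genes, 12 had a window and 2 of those held a CArG box, Egr2 and Zfp36. Actb had no window, and sites outside the windows were not searched. The part of SRF in the levels or in the differences between the pools was not tested.

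Other promoter motifs were also searched on both strands in the same windows. GGGCGG, the core of the GC box bound by Sp factors, was found for 26 of 32 members (81.2%), 69.7% of the detected genes with a window and 38.2% of all genes with one. CCGGAAG, a motif of ETS factors, was found for 9 members (28.1%), 22.7% of the detected and 9.93% of all genes. TATAAA was found for 5 members (15.6%), 8.3% of the detected and 15.7% of all genes. The members with TATAAA were Arhgdib, Cdc42, Myh9, Rhoa and Vim, and in Vim it starts 32 bases before the start of transcription. A CArG box can hold TATAAA, and CCGGAAG can overlap the reverse complement of GGGCGG, and such matches were counted under both.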

How the data were processed

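RNA of sorted bone marrow ILC2 progenitors was sequenced in 2 libraries of 1 group. The authors deposited RPKM values for 27179 Entrez gene IDs per library. The tools listed in the submitters' processing notes are CASAVA 1.8.2, featureCounts and edgeR, in versions 3.8.2 and 3.22.0, with mm10 (GRCm38) as the build and no step for any of them. The sources used here do not give the aligner, the strand setting or the treatment of reads with several matches, and RPKM may therefore understate genes with copies.

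Python 3.11.15 with numpy 2.4.6, pandas 2.3.3 and scipy 1.17.1 was used. Differences are on the log2(RPKM + 0.1) scale, which understates those of low genes. Whole reads were recovered from the steps between the deposited RPKM values: library totals came from genes above 0 in 1 library (983 and 937 genes), and for 272 of 277 listed genes above 0 a whole length gave whole reads in both pools within the rounding of the deposited digits. Where multiples of a length did so, the one nearest the longest annotated RefSeq transcript was taken. The recovery was tested on simulated data. Intervals are 95% exact conditional (Clopper-Pearson) and cover counting error only, and reads are not independent molecules. Sequence sharing was counted in stretches of 50 bases of 1 coding transcript a gene against GENCODE M21. Of 282 names on the gene and marker lists 280 matched, 3 of them by gene ID (Diaph1, Diaph2 and Diaph3), and Mrtfa and Mrtfb stand on the list under their older names Mkl1 and Mkl2.

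The members and lists were chosen with earlier results of these data known. All members are named, and of the other actin genes the highest and lowest of each role and those past 1.5-fold with a mean of 10 RPKM or more. Of each marker list the rule takes the highest and lowest, of which some are named. No test between groups was possible, since there is 1 group. Pseudocounts, filters, scalings and thresholds were varied, as was leaving out a pool.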

Additional observations from a re-analysis of the deposited data

How the results depend on the processing

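The count of members past 1.5-fold (2) was 1 with a pseudocount of 1, 1 with the libraries scaled to a median ratio of 1 and 0 at 2-fold, and it was 3 at the lowest fold limit tried. It was 2 with a pseudocount of 0.01, without a filter, with a filter of 5 RPKM and with equal sums, and the median pool difference of the members (0.029) changed sign to -0.015 with a median ratio of 1 and was 0.045 with equal sums. The count at 100 RPKM or more was 31 at 50 RPKM and 13 at 200 RPKM. The members' share of summed RPKM was 2.48% without mitochondrially encoded genes, and 3 of the other actin genes were past 2-fold. Without Actg1, Actr3, Tmsb10 and Tmsb4x, an alternative chosen after seeing the data, the median level was 7.33 and the counts were 2 and 24. The log2 ratio of Wasf2 to Was was 0.18 in reads not divided by length, since the genes differ in length. In such reads, the mean log2 ratio of Arpc2 to Arpc1b was 0.17 in place of 1.13. That of Rac2 to Rac1 was 0.77 in place of 1.35, and no pair other than Wasf2 and Was changed sign. That of Tmsb4x to Tmsb10 was -6.39 with a pseudocount of 1. Without replicate 1 or 2, the count at 100 RPKM or more was 25 to 26 and the median level 7.24 to 7.29. Pool differences could not be recomputed without a pool. No paired analysis was possible because there is 1 group. The value of Tmsb4x rests on 2 and 3 reads and is imprecise, and what made it so low was not tested.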

Other observations

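Many proteins of the actin system exist as a form of blood cells and a widely expressed relative. Across 12 such pairs, chosen after the values were seen and so given as a description, the blood cell form was the higher in both pools in 11, per length. The median of the mean log2 ratios was 3.89. Because the pairs were picked by hand, neither the count nor the median describes such pairs in general. Hcls1 exceeded Cttn, the cortactin of most other tissues, by 8.81 and 8.26 on the log2(RPKM + 0.1) scale in pools 1 and 2. The formin gene Fmnl1 exceeded Fmnl2 by 8.81 and 7.65, while Fmnl3, a relative left out of the pairs, was at 11.9 and 12.2 RPKM. The plastin gene Lcp1 exceeded Pls3 by 7.71 and 7.54. In these 3 pairs the second gene was under 2 RPKM.

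The WAVE complex subunit gene Nckap1l (HEM1) was above Nckap1 by 5.09 and 4.58, and the exchange factor gene Dock2 was above Dock1 by 4.70 and 5.85. Was was above Wasl, the gene of N-WASP, by 4.73 and 4.71, and Vav1 was above Vav2 by 2.46 and 2.36. The gaps were narrower for Arpc1b over Arpc1a (1.87 and 2.02) and Arhgdib over Arhgdia (1.10 and 1.34). The pair that did not keep its sign was Gmfg and Gmfb, genes of glia maturation factors that take Arp2/3 branches apart, with log2 ratios of 0.30 and -0.31. Of the 50-base stretches of Gmfg, 42.8% occur in annotated genes elsewhere, against 0% of those of Gmfb, and the part of this in the ratio was not tested.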
